A study of Solanum lycopersicum with 4 samples.

Results

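The transcripts described here are those of 10 tomato genes for enzymes of flavonoid synthesis, from chalcone synthase (CHS) to anthocyanidin synthase (ANS). They were taken from a table of 34675 genes by ID, for their place in the pathway and with earlier results of these data known. All 10 were found in it. In pathway order they are CHS1 (Solyc09g091510), CHS2 (Solyc05g053550), the neighbouring pair Solyc05g010310 and Solyc05g010320 for chalcone isomerase (CHI) and a CHI-like protein, and F3H (Solyc02g083860). F3'H (Solyc03g115220), FLS (Solyc11g013110), F3'5'H (Solyc11g066580), DFR (Solyc02g085020) and ANS (Solyc08g080040) complete the set. The table itself names a single gene, Slchs, which is the CHS1 row, and the other names are those with which the IDs were chosen. The CHI gene and the CHI-like gene of the chromosome 5 pair are not told apart here.

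RNA was sequenced from fruit of the tomato variety Ailsa Craig without any treatment. The CsMYBF1 group held 2 libraries from transgenic fruit that express the citrus gene CsMYBF1, 1 from line D7 (replicate 1) and 1 from line C2 (replicate 2). The wild-type (WT) group held 2 libraries of the same variety without the transgene. The promoter of the transgene and the ripening stage of the fruit were not given in the sources used here. Neither was the number of plants behind a library, so the p-values describe the spread of these 4 libraries only, part of which may be technical. In the limma fit described below, each gene's variance was also drawn toward that of genes of like level. Each line has 1 library, and a difference between the lines has no replicate check. The rows are tomato genes, and the level of the citrus transcript was not analysed here.

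Flavonoid synthesis starts with CHS, which joins a coumaroyl unit with malonyl units into a chalcone, and CHI closes the ring to the flavanone naringenin. F3H turns flavanones into dihydroflavonols, F3'H and F3'5'H add hydroxyl groups to the B ring, and FLS turns dihydroflavonols into flavonols such as kaempferol and quercetin. DFR and ANS take dihydroflavonols into the anthocyanin branch instead, so FLS and DFR act on the same substrates. Tomato fruit is known for naringenin chalcone and flavonol glycosides in its skin, for very low CHI transcript levels, and for little or no anthocyanin in ordinary cultivars. CsMYBF1 encodes a transcription factor of the MYB family, several members of which switch on flavonoid enzyme genes in plants.

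The authors deposited levels as RPKM, which are reads divided by gene length in kilobases and by the library's reads in units of 1000000. The read numbers behind them were recovered from the steps of the values, and the depth was 15227619 reads for line D7 and 12916160 for line C2, against 21403774 for WT replicate 1 and 13101910 for WT replicate 2. Group differences come from limma on log2(RPKM + 1) over the 16876 genes that averaged at least 1 RPKM, with Benjamini-Hochberg adjustment over all of them and a threshold of 0.05. By this rule 18.8% of all genes tested were called higher in CsMYBF1 fruit and 2.09% were called lower. Over all genes tested the median log2 fold change was 0.49, a shift shared by much of the transcriptome on the RPKM scale. With median-of-ratios scaling, which centres the genes read in every library, the median was -0.045. The 10 top genes of a library held 9.1% of the summed RPKM in line D7 and 9.65% in line C2, against 18.7% and 18.9% in WT replicates 1 and 2. The source of the shift was not tested. Of the 10 flavonoid genes, 6 reached the filter and were tested. The other 4, which are Solyc05g010310, F3'5'H, DFR and ANS, lay below it.

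FLS and F3H, the enzymes that make flavonols and the dihydroflavonols before them, rose in CsMYBF1 fruit. FLS was 3.78-fold and F3H 2.67-fold higher by the group means, and each was higher in both lines than in either WT library. F3'H was 4.96-fold higher by the means and also higher in both lines, but did not pass the test. Of all genes tested, 50.7% were higher in both lines than in both WT libraries. All these values are on the RPKM scale, which carries the shift described above. With median-of-ratios scaling the log2 fold changes were 1.26 for FLS, 0.76 for F3H and 1.32 for F3'H, and none passed the test. The CHS genes exceeded both WT libraries in line D7 alone. The anthocyanin genes DFR and ANS, F3'5'H and the CHI pair stayed below 4 RPKM in every library. With 2 of 6 tested genes called higher and 0 called lower, the counts stand beside the 18.8% and 2.09% of all genes given above, and nothing particular to these genes is read from 2 in 6. By limma's unadjusted p below 0.05, F3'H joined FLS and F3H, which made 3 of 6 higher and 0 lower, beside 34.1% and 7.35% of all genes. Voom (limma) on the recovered reads called 2 of the 6 higher and 0 lower, beside 20.9% and 1.97% of all genes. With no filter, median-of-ratios scaling, a gene length correction or a replicate block, 0 of the flavonoid genes were called. Over all genes, these settings called 0.045%, 2.95%, 0.107% and 0.142% higher and 0.0%, 5.49%, 0.0% and 0.0% lower, in that order.

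**Figure D1:**
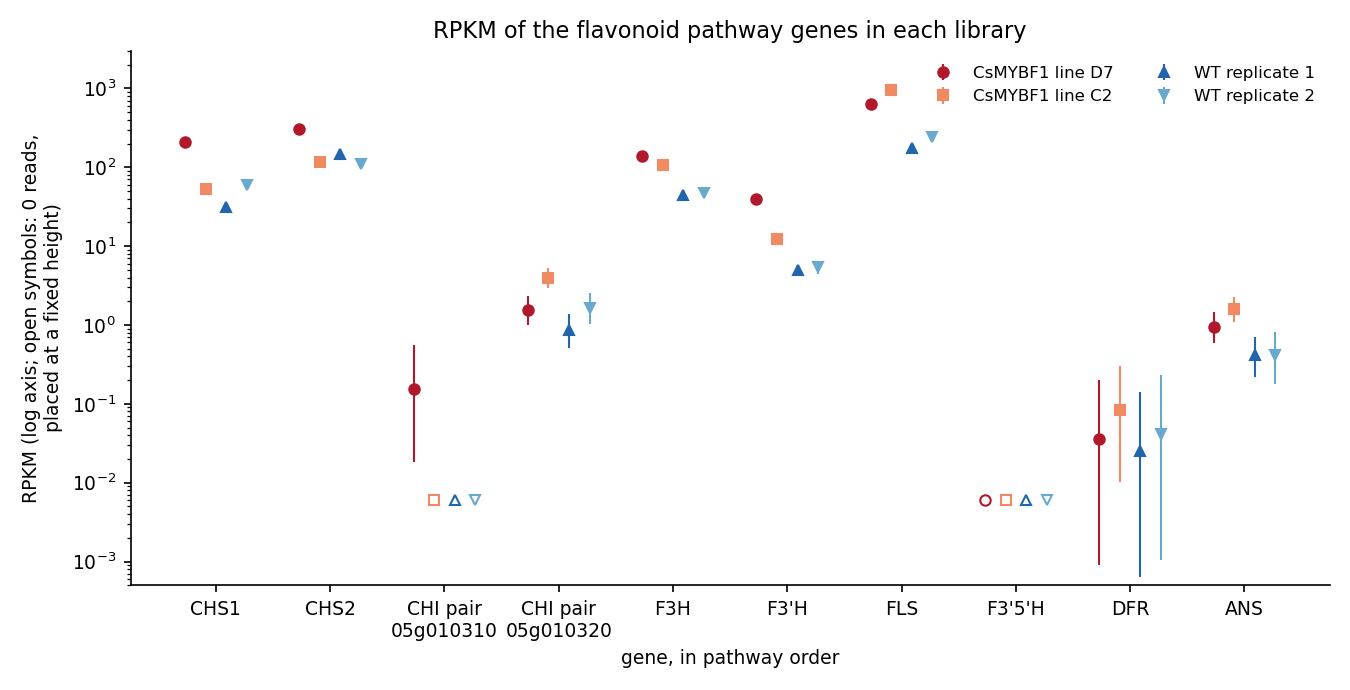
RPKM (log axis) of the 10 genes in pathway order in CsMYBF1 line D7, CsMYBF1 line C2, WT replicate 1 and WT replicate 2, from left to right within each gene. Bars are exact 95% counting intervals of the library's reads, and open symbols mark 0 reads. FLS, F3H, F3'H and ANS lie higher in both lines than in both WT libraries, as do 43.3% of all genes with any read. The CHI pair, F3'5'H, DFR and ANS lie below 4 RPKM throughout.

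The CHS1 level was 209 RPKM in line D7 and 53.4 in line C2, against 31.0 RPKM in WT replicate 1 and 59.8 in WT replicate 2. CHS2 stood at 308 and 115 RPKM in lines D7 and C2, against 146 and 109 RPKM in WT replicates 1 and 2. For both genes line D7 was the highest library and line C2 lay between the WT libraries, so the groups overlap. CHS2 had the higher RPKM of the pair in all 4 libraries. Neither gene passed the test. The log2 fold change of CHS2 was 0.57 with a standard error of 0.50 and a 95% interval of -0.65 to 1.80 (limma, adjusted p = 0.42), which is close to the median of all genes. The 95% interval for CHS1 was -0.39 to 2.94 (limma, adjusted p = 0.21).

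The ratio of CHS1 to CHS2 within a library, in which the library's scale cancels, was 0.676 in line D7 and 0.465 in line C2, against 0.213 in WT replicate 1 and 0.547 in WT replicate 2. Line C2 again fell between the WT libraries. The WT libraries themselves differed in CHS1 by more than counting error, since WT replicate 1 had 0.519 times the level of WT replicate 2 (exact 95% counting interval 0.475 to 0.566). That spread enters the standard error of the CHS1 comparison.

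The chalcone isomerase step was represented by few reads. Solyc05g010310 had 2 recovered reads in line D7 and 0 in line C2, against 0 in both WT libraries, so no fold is given. With a value above 0 in line D7 only, its 2 reads are a lower limit. Solyc05g010320 had 1.57 RPKM in line D7 and 3.94 in line C2, against 0.872 and 1.66 RPKM in WT replicates 1 and 2. Line C2 was the highest library for this gene, and line D7 lay between the WT libraries. These values rest on 23 and 49 reads in the lines, against 18 and 21 reads in WT. The log2 fold change of Solyc05g010320 was 0.67 (standard error 0.46, 95% interval -0.46 to 1.80), which missed the threshold (limma, adjusted p = 0.31). Omitting line D7 made it 1.14, omitting line C2 0.20, omitting WT replicate 1 0.42 and omitting WT replicate 2 0.93. It was 0.29 with a pseudocount of 5, 0.27 with median-of-ratios scaling and 1.06 with voom on the recovered reads. Unlike the CHS genes, it was lower in line D7 than in line C2, by a ratio of 0.398 (exact 95% counting interval 0.232 to 0.666).

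F3H, which makes the dihydroflavonols at the branch of flavonols and anthocyanins, reached 137 RPKM in line D7 and 107 in line C2, against 43.9 and 47.2 RPKM in WT replicates 1 and 2. Both lines were above both WT libraries, and the libraries of a group lay close together. The means were 122 ± 21.5 RPKM in CsMYBF1 fruit and 45.5 ± 2.32 RPKM in WT fruit (SD, n = 2 each). The log2 fold change of 1.39 (standard error 0.28, 95% interval 0.70 to 2.08) passed the test (limma, adjusted p = 0.032), and it was larger than that of 82.4% of all genes tested. It exceeded the median of all genes by 0.89. Of the 6 genes tested, F3H had the smallest standard error.

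F3'H, which adds the hydroxyl group that separates quercetin from kaempferol, reached 39.3 RPKM in line D7 and 12.4 in line C2, against 5.05 and 5.38 RPKM in WT replicates 1 and 2. Both lines were above both WT libraries, but the lines lay 3.18-fold apart (exact 95% counting interval 2.79 to 3.64), whereas the WT libraries were close to each other. The log2 fold change of 1.90 was as large as that of FLS, with a standard error of 0.55 and a 95% interval of 0.55 to 3.25, and missed the threshold (limma, adjusted p = 0.057). It was 1.10 without line D7, 2.70 without line C2 and 1.12 with the trend on gene length removed. F3'5'H, which would add a further hydroxyl group and open the delphinidin branch, had 0 reads in all 4 libraries. Its length could not be recovered without reads. In a gene of 1 kilobase, the limit that a count of 0 allows (3 reads) is 0.197 RPKM in line D7, 0.232 in line C2, 0.14 in WT replicate 1 and 0.229 in WT replicate 2, for counting error only.

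FLS, which draws dihydroflavonols into flavonols, had the highest RPKM of the 10 genes in every library. By reads, CHS2 exceeded it in WT replicate 1 (4377 against 3979). It reached 634 RPKM in line D7 and 954 in line C2, against 176 RPKM in WT replicate 1 and 244 RPKM in WT replicate 2. Both lines were above both WT libraries, and the means were 794 ± 226 RPKM in CsMYBF1 fruit and 210 ± 48.6 RPKM in WT fruit (SD, n = 2 each). The log2 fold change of 1.90 (standard error 0.34, 95% interval 1.06 to 2.74) passed the test (limma, adjusted p = 0.031) and was larger than that of 95.1% of all genes tested. Among all genes of a library FLS ranked 125 in line D7 and 70 in line C2, against 991 and 780 in WT replicates 1 and 2. Here line C2 was the higher line, opposite to the CHS genes, F3H and F3'H. The ratio of line D7 to line C2 was 0.665 (exact 95% counting interval 0.648 to 0.683), a difference of about the size seen between WT replicates 1 and 2, whose ratio was 0.718 (0.686 to 0.752).

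**Figure D2:**
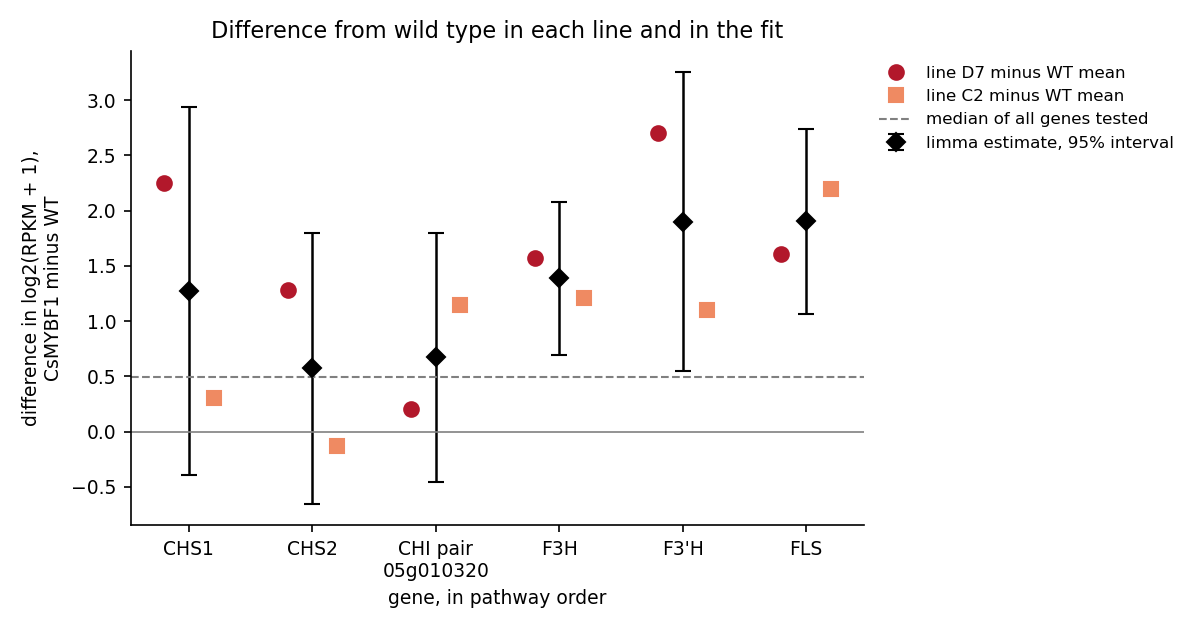
Difference in log2(RPKM + 1), CsMYBF1 minus WT, for the 6 genes tested. Circles and squares are lines D7 and C2 against the WT mean, diamonds are the limma estimates with 95% intervals, and the dashed line is the median of all genes tested, 0.49. FLS, F3H and F3'H lie above the dashed line in both lines, CHS1 and CHS2 only in line D7, and Solyc05g010320 only in line C2.

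DFR, the first enzyme of the anthocyanin branch, was almost unread. It had 1 read in line D7 and 2 in line C2, against 1 in WT replicate 1 and 1 in WT replicate 2. The ratio of CsMYBF1 to WT, per read sequenced, was 1.84 with an exact 95% counting interval of 0.211 to 22.0, so no difference was detectable at this depth. In the same libraries FLS had 10226, 13043, 3979 and 3390 reads in line D7, line C2, WT replicate 1 and WT replicate 2.

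ANS, which makes anthocyanidins, was low but was read in each library. It had 0.947 RPKM in line D7 and 1.59 in line C2, against 0.417 and 0.419 RPKM in WT replicates 1 and 2, from 21 and 30 reads in the lines against 13 and 8 reads in WT. Both lines were above both WT libraries. Per read sequenced, ANS was 2.98-fold higher in CsMYBF1 fruit, with an exact 95% counting interval of 1.76 to 5.21 that holds no spread between fruit. Its mean lay below the filter. With no filter the fit gave ANS a log2 fold change of 0.66 (standard error 0.23) on the RPKM + 1 scale, which understates the change of a gene this low, and ANS was not called (limma, adjusted p = 0.13).

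Altogether 4 genes, F3H, F3'H, FLS and ANS, were higher in both lines than in both WT libraries, 3 of them among the 6 tested, and 0 were lower. The same order was found for 50.7% of all genes tested (17.4% were lower in both lines) and for 43.3% of all genes with any read (14.4% lower). After median-of-ratios scaling, which centres the genes read in every library, 33.4% of genes tested were higher in both lines and 34.8% lower, and among genes with any read the shares were 28.8% and 28.2%. The 4 genes kept it after that scaling. Scaled FLS values, for example, were 485 and 791 in lines D7 and C2, against 202 and 328 in WT replicates 1 and 2. An exact permutation test of 2 libraries against 2 cannot give a two-sided p below 0.333 for a single gene. In bulk fruit RNA, more cells of a type that carries a transcript and more of it per cell cannot be told apart.

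**Figure D3:**
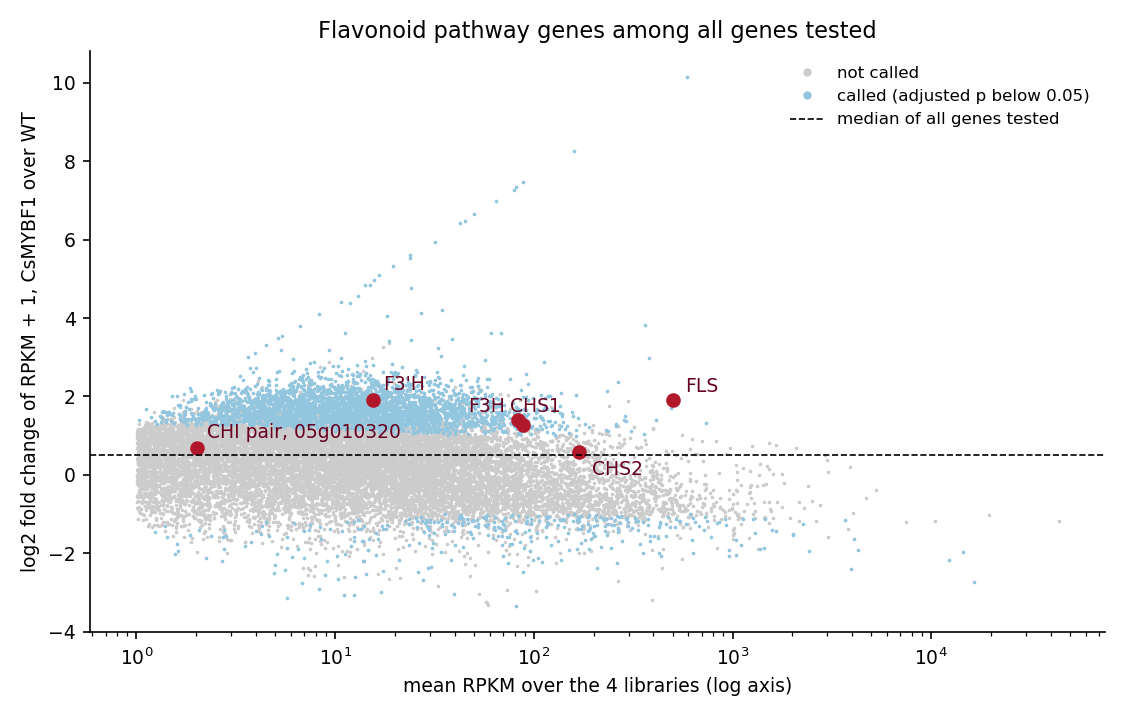
Log2 fold change of RPKM + 1, CsMYBF1 over WT, against the mean RPKM over the 4 libraries (log axis) for the 16876 genes tested. Blue points are genes with an adjusted p below 0.05, red points are the flavonoid genes, and the dashed line is the median of all genes. FLS and F3'H are at 1.90, F3H at 1.39 and CHS1 at 1.28, while CHS2 and Solyc05g010320 lie near the dashed line.

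The summed RPKM of the 10 genes was 1330.0 in line D7 and 1246 in line C2, against 402 in WT replicate 1 and 468 in WT replicate 2. The sums of the lines were thus close to each other, and their mean was 2.96-fold the WT mean, or 1.88-fold after median-of-ratios scaling. The lines reached these sums with a different make-up. FLS took 47.7% of the sum in line D7 and 76.5% in line C2, against 43.6% and 52.2% in WT replicates 1 and 2. CHS1 and CHS2 together took 38.9% in line D7 and 13.5% in line C2, against 43.9% and 36.1% in WT. Line D7 thus lay within the WT range for the CHS genes together and for FLS, and line C2 lay outside it for each. Taken alone, CHS1 held 15.7% in line D7 and 4.29% in line C2, against 7.7% and 12.8% in WT. CHS2 held 23.2% and 9.22% in lines D7 and C2, against 36.2% and 23.4% in WT. F3'H took 2.96% in line D7 and 0.991% in line C2, against 1.25% and 1.15% in WT. For CHS1 and F3'H line D7 thus lay above both WT libraries and line C2 below both. The share of F3H was 10.3% in line D7 and 8.55% in line C2, against 10.9% and 10.1% in WT. The CHI pair, DFR, ANS and F3'5'H together took 0.203% and 0.45% in lines D7 and C2, against 0.327% and 0.454% in WT.

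**Figure D4:**
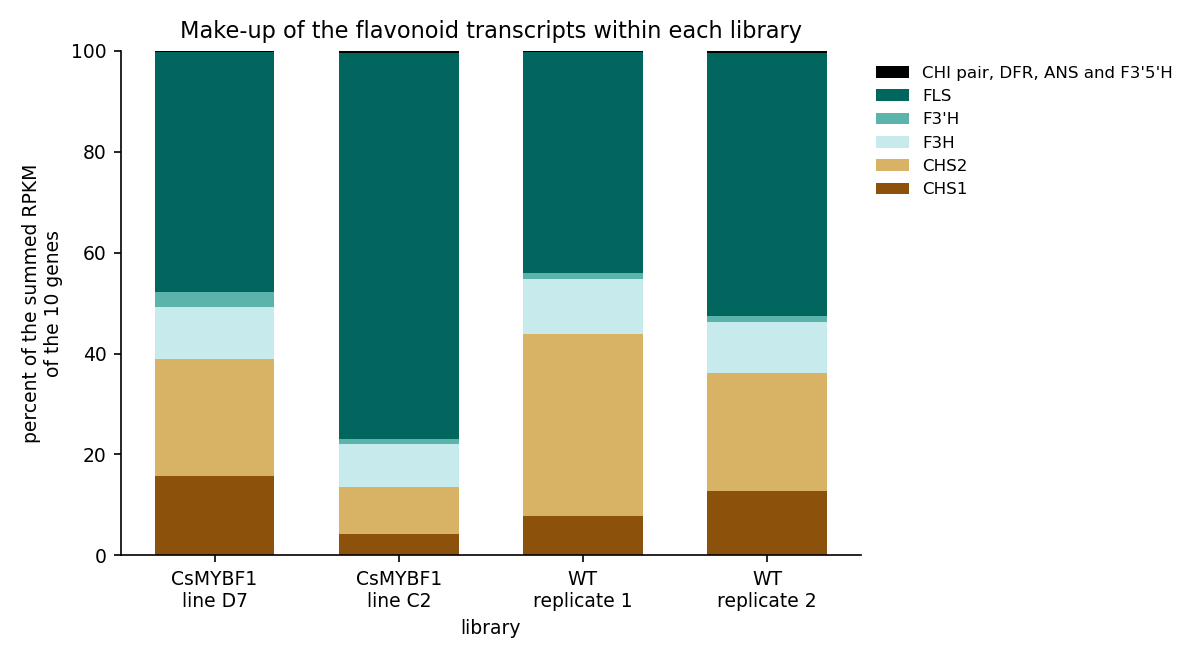
Percent of the summed RPKM of the 10 genes taken by each gene in CsMYBF1 line D7, CsMYBF1 line C2, WT replicate 1 and WT replicate 2. FLS takes 76.5% in line C2 and 43.6% to 52.2% in the other 3 libraries.

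Ratios of RPKM within a library are quotients of these shares, so they restate the contrast between the lines and add no separate evidence. FLS over CHS1 plus CHS2 was 1.23 in line D7 and 5.66 in line C2, against 0.994 and 1.45 in WT replicates 1 and 2. FLS over F3H was 4.63 in line D7 and 8.95 in line C2, against 3.998 and 5.18 in WT. In both ratios line D7 lay between the WT libraries and line C2 above them. F3'H over F3H went the other way, with 0.287 in line D7 and 0.116 in line C2, against 0.115 and 0.114 in WT, so here line C2 was close to the WT libraries. These ratios compare per-length levels, but FLS is a version 1 gene model of 1059 bases, a class whose lengths are mostly coding lengths, whereas CHS1, CHS2, F3H and F3'H are version 2 models. Comparisons of a ratio between libraries use the same lengths throughout.

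Relative to the WT mean, line D7 was 4.6-fold higher for CHS1, 2.42-fold for CHS2, 3.01-fold for F3H, 7.54-fold for F3'H and 3.02-fold for FLS. Line C2 stood at 1.18-fold for CHS1, 0.902-fold for CHS2, 2.34-fold for F3H, 2.37-fold for F3'H and 4.54-fold for FLS. The same WT libraries serve both lines, so the columns of folds are not independent. At least 2-fold above the WT mean were 5 of the 6 tested genes in line D7 and 4 in line C2, against 37.0% and 36.0% of all genes tested. Between the lines, CHS1, CHS2 and F3'H were at least 2-fold higher in line D7, where 9.57% of all genes tested were, and Solyc05g010320 was at least 2-fold higher in line C2, where 5.53% were.

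The calls of FLS and F3H rested on settings, and their fold changes moved when single libraries were left out, while the direction stayed. With median-of-ratios scaling the log2 fold changes were 1.26 (standard error 0.40, limma adjusted p = 0.087) for FLS and 0.76 (0.26, limma adjusted p = 0.10) for F3H. With the trend on gene length removed from each library they were 1.79 (0.36, limma adjusted p = 0.12) and 0.93 (0.25, limma adjusted p = 0.14). Over all genes tested, the share called higher fell as well, from 18.8% to 2.95% with the scaling and 0.107% with the length correction. The share called lower went from 2.09% to 5.49% and 0.0%. Without line D7, FLS had a log2 fold change of 2.20 and F3H one of 1.21, and without line C2 they were 1.61 and 1.57. Without WT replicate 2 they were 2.14 and 1.44, and without WT replicate 1 they were 1.67 and 1.34. For CHS1, omitting line D7 gave 0.30, omitting line C2 2.25, omitting WT replicate 1 0.81 and omitting WT replicate 2 1.74. The scaling gave 0.65 and the length correction 0.75, and CHS1 was called with neither. For CHS2 omitting WT replicate 1 gave 0.78 and omitting WT replicate 2 gave 0.37, and the length correction gave 0.086.

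**Figure D5:**
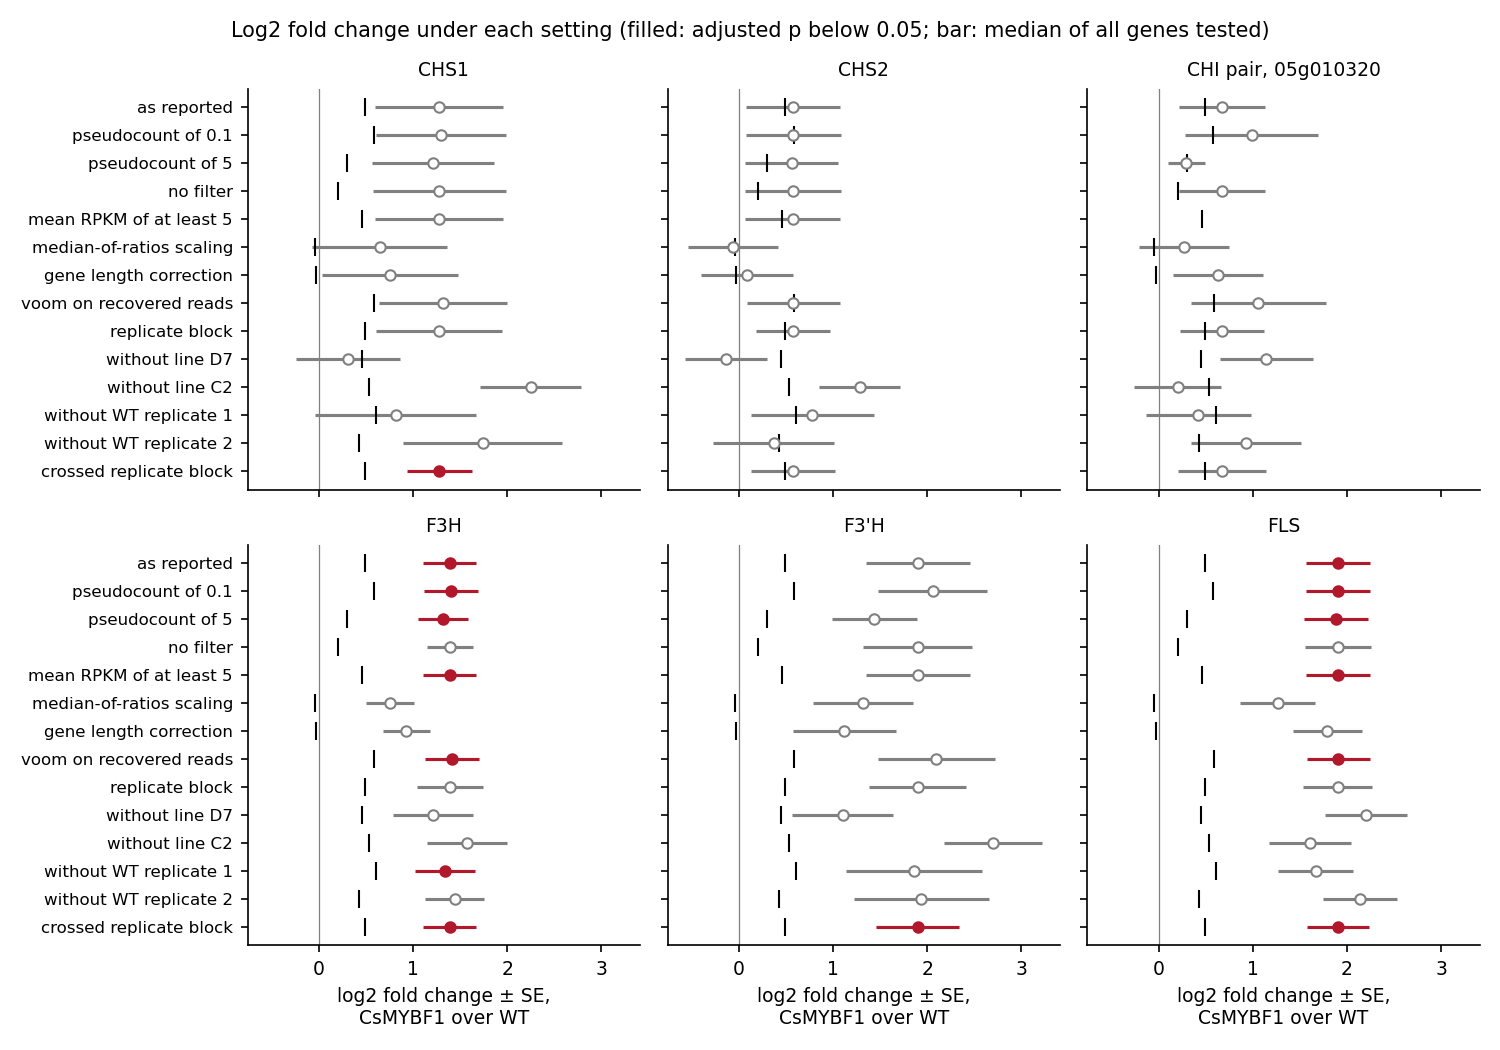
Log2 fold change ± SE, CsMYBF1 over WT, of the 6 genes tested under each setting, with filled points where the adjusted p was below 0.05 and bars at the median of all genes tested. FLS ranges from 1.26 to 2.20 and F3H from 0.76 to 1.57, to the right of the bar in every setting, and CHS2 lies below 0 with median-of-ratios scaling and without line D7.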

How the data were processed

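The authors deposited RPKM values for 4 libraries in 1 table with Solyc gene IDs as rows. The submitters' processing notes name HTSeq. The aligner, genome build, annotation, strand setting and treatment of multiply mapped reads were not given in the sources used here, so reads of the similar CHS1 and CHS2 may have been split between them. Columns were matched to samples by line name or replicate number, and groups come from the sample descriptions. The members and the tests were chosen with earlier results of these data known. The named genes are all 10 members. RefSeq's gene table (assembly SLM_r2.1) holds 0 Solyc IDs. It lists 7 of the names as symbols, each on the chromosome that the ID gives, and a list of further pathway genes was not used because nothing pairs their IDs with names.

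Low RPKM values step in whole multiples of 1 read. Library totals and the smallest length from 60 to 20000 bases that gave whole reads, within 0.001 reads, were solved for 24420 of 24422 genes above 0 (99.99%), against 7.73% of 3000 genes with wrong totals. Lengths are lower limits where reads and length share a factor. Exact intervals (Poisson, or binomial for ratios, level 95%) and the floor of 3 reads cover counting error only, since PCR copies cannot be told from separate molecules.

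The fit was limma 3.58.1 in R 4.3.3 (eBayes, trend = TRUE) on log2(RPKM + 1), which understates changes of low genes, for genes that averaged at least 1 RPKM. It was also run on simulated data with large planted changes and no shift shared by all genes, which does not give its error rate for these data. Alternatives were pseudocounts of 0.1 and 5, no filter, a filter of 5 RPKM, median-of-ratios scaling, a loess correction on gene length (span 0.3), voom on the recovered reads, a replicate block and omitting each library in turn. Python 3.11.15 with scipy 1.17.1 gave intervals and ranks.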

Additional observations from a re-analysis of the deposited data

Results flagged for a closer look

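For CHS2 the lines stood on opposite sides of the WT mean, with line D7 at 2.42-fold and line C2 at 0.902-fold of it. The difference between the lines was not tested, since each has 1 library, and line C2 lay between the WT libraries.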

How the results depend on the processing

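Against 2 flavonoid genes called higher (of 3179 genes higher and 352 lower), the number was 0 with no filter (11 genes higher, 0 lower), with median-of-ratios scaling (498 and 926), with the gene length correction (18 and 0) and with a replicate block (24 and 0). By limma's unadjusted p below 0.05, 4, 2, 2 and 3 flavonoid genes were higher in these settings, in the same order, and 0 were lower, among 6407, 2989, 2083 and 4947 genes higher and 1364, 3549, 1932 and 956 lower. Omitting the libraries in turn gave 0 to 1 flavonoid genes called higher, among 6 to 3365 genes higher and 0 to 451 lower, and these fits assume that a lone library varies as the other group does. The replicate numbers mark no shared plant or batch in the labels, and the correlation across genes of the deviations of libraries with the same number was -0.16. With the block the limma adjusted p was 0.063 for FLS and 0.065 for F3H. A crossed replicate block, chosen after seeing the data because of that correlation, gave 4 flavonoid genes higher among 4071 higher and 816 lower. The median log2 fold change of the flavonoid genes tested, 1.33, became 0.67 with no filter, which adds 3 low genes, 0.70 with median-of-ratios scaling and 0.84 with the gene length correction. Those settings moved the median of all genes, 0.49, to 0.20, -0.045 and -0.03. Without single libraries the flavonoid median was 1.08 to 1.59. The log2 fold change of CHS2 was -0.062 with median-of-ratios scaling and -0.13 without line D7, and reached 1.28 without line C2. Fits without a library also hold fewer libraries, and the fit with no filter holds added genes. The cause of these changes was not tested. FLS, F3H, F3'H and CHS1 kept their direction in all 13 alternatives, and Solyc05g010320 in the 12 that tested it. Depth limits Solyc05g010310, F3'5'H and DFR, which had 0 to 2 recovered reads per library.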
